A study of Mus musculus with 9 samples.

Results

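Regions of the genome that were open in both luminal cell types of the mouse mammary gland and less open in basal cells were followed across puberty, adulthood and mid pregnancy. Of 124860 ATAC-seq regions, 811 met the rule. The regions were chosen by their puberty and adult values on the log2(value + 1) scale. Basal cells had to lie at least 1.5 below the ER+ luminal and the ER- luminal cells of the same stage, at both stages. Both luminal types had to reach a value of 20 at both stages, and their means over the 2 stages had to differ by less than 1. The pregnancy libraries played no part in the choice.

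The mammary epithelium has 2 layers. Basal cells form the outer layer, contract to expel milk and touch the basement membrane, and luminal cells line the lumen. Luminal cells carrying the oestrogen receptor (ER+) sense the hormone, while most cells that will make milk belong to the ER- luminal type. The layers make different keratins, contractile proteins and hormone receptors, and DNA open in 1 layer and less so in the other is a usual mark of such differences in gene use. ATAC-seq reports how often the Tn5 transposase inserts at a site, so a higher normalised read count stands for more accessible DNA.

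Each of the 9 libraries stands alone for its cell type and stage. Per the labels, basal cells, ER+ luminal cells and ER- luminal cells were sorted by FACS from glands at puberty, in adults and at mid pregnancy, from mice that all carried ERrtTA/TetOCre/rosaYFP. These names read as a tetracycline-controlled activator tied to the oestrogen receptor gene, a Cre under its control and a YFP reporter, and all 9 groups share them. Ages, the number of mice per library and the way the receptor status was gated are in none of the sources used here. Per the labels' protocols, 100000 sorted cells went into a library. The table names regions by a running number with neither coordinates nor genes, so no marker gene of a cell type was checked and no sequence, promoter or neighbouring gene can be given.

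The pregnancy libraries were the shallowest, with 2186941 to 3418164 reads in regions against 6679907 to 11328189 in the other 6. The luminal pregnancy libraries, ER+ and ER-, were higher than the earlier luminal libraries of their type at basal-high regions. In 5138 regions where basal cells lay at least 1.5 above both luminal types at puberty and in adults, the ER+ luminal pregnancy library had a median value of 13.56. It was 2.629 and 3.421 in the ER+ luminal puberty and adult libraries. The ER- luminal libraries had medians of 5.735, 8.171 and 12.13 there at puberty, in adults and in pregnancy, and the basal libraries 46.7, 59.19 and 46.19. The choice asked for low luminal values at the earlier stages, so part of the higher pregnancy values is set by it, for ER+ and ER- cells alike. These levels go with every luminal pregnancy value below, ER+ and ER-, and their part in those values was not tested.

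The limits of the rule narrowed the regions in steps. Basal cells lay 1.5 or more below both luminal types in 6153 regions at puberty and 5365 in adults, and in 1287 at both stages. The level of 20 kept 898 of these. Of the 87 then dropped for unequal luminal types, 72 were higher in ER+ and 15 in ER- luminal cells. At the limit itself, member merged63379 had a smallest luminal to basal difference of 1.5, while merged40154, outside the set, had 1.499 and met all other limits. In the order basal, ER+ luminal and ER- luminal, merged63379 had values of 13.46, 67.83 and 73.84 at puberty, and merged40154 had 25.33, 139.3 and 242.3. The 2 regions thus differ in level far more than in the quantity that separates them.

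In the 6 libraries that chose them, the members were bright in luminal cells and middling, not empty, in basal cells. Their median value was 78.88 in ER+ and 73.12 in ER- luminal cells at puberty, against 13.46 in basal cells. In adults it was 76.12 in ER+ and 66.86 in ER- luminal cells, against 15.78 in basal cells. The luminal medians lay at the 82.3 to 83.6 percentile of all regions of their libraries. The basal medians lay at the 49.3 and 51.3 percentile, so a basal member had about the value of an ordinary region of the table. At puberty 385 members, and in adults 430, were at or above the basal median of all regions. Only 1 member had no read in the basal puberty library and none lacked a read in the basal adult library. The name "closed in basal cells" therefore goes further than the values, which show lower and not absent accessibility.

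**Figure D1:**
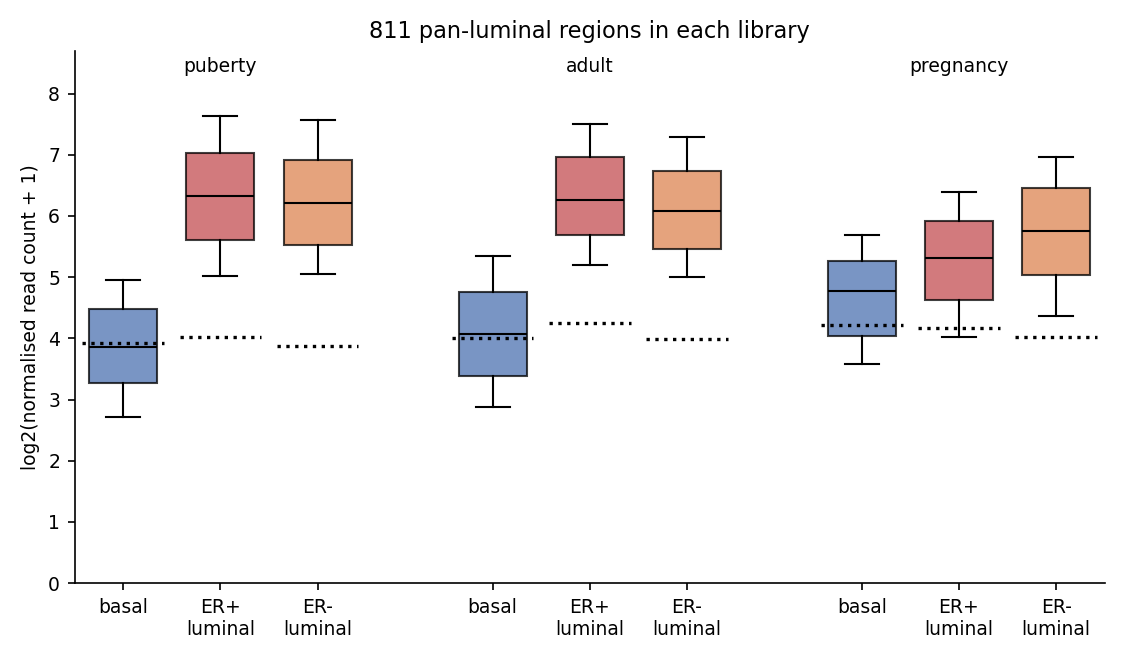
Log2(normalised read count + 1) of the 811 members in each of the 9 libraries (boxes, quartiles with the median; whiskers, 10th to 90th percentile over regions; dotted lines, median of all 124860 regions in that library). The basal boxes straddle the dotted line at puberty and in adults and lie nearer the luminal boxes in pregnancy.

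The size of the luminal excess over basal cells is fixed from below by the rule, so it is given as a description. Its median was 2.49 for ER+ and 2.33 for ER- luminal cells at puberty, and 2.22 and 1.96 in adults. These correspond to 5.62, 5.01, 4.66 and 3.89-fold. The widest member difference, averaged over both luminal types, was 5.75 at puberty and 4.03 in adults. Basal and luminal values went together across members: Pearson r between the mean luminal and the basal log2 value was 0.832 at puberty and 0.924 in adults (across 811 regions, which are not independent and whose basal value the rule caps).

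A typical member, the one nearest to the 9 medians, was merged109847. In the order basal, ER+ luminal, ER- luminal it had values of 19.79, 85.71 and 81.01 at puberty, 16.57, 78.68 and 57.2 in adults, and 32.99, 38.99 and 45.5 in pregnancy. Luminal values stood well above basal ones at the earlier stages and lay close to them in pregnancy. Its mean luminal minus basal difference in pregnancy was 0.343, below the members' lower quartile of 0.428 and their median of 0.866. For pregnancy it thus stands for members with a small difference. Its pregnancy counts were 15, 23 and 30 reads, and the ratio of ER+ luminal to basal had a 95% counting interval of 0.591 to 2.44.

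The brightest members in luminal cells were merged386 and merged81569. For merged386 the basal values were 62.53, 122.3 and 112.2 at puberty, in adults and in pregnancy. Its ER+ luminal values were 588.9, 532.8 and 137.3 and its ER- luminal values 500.4, 462.8 and 212.3, so the drop in pregnancy lay on the luminal side. For merged81569 the basal values were 60.94, 89.18 and 112.2, the ER+ luminal values 421.7, 512.3 and 301.7, and the ER- luminal values 538.4, 470.2 and 359.5. This region kept a luminal to basal ratio in pregnancy of 2.69 for ER+ (95% counting interval 1.96 to 3.75) and 3.2 for ER- luminal cells (2.36 to 4.43). These intervals hold counting error alone: reads copied by PCR do not each stand for a separate molecule.

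The pregnancy libraries give the measurement that the choice did not use. There both luminal types remained above basal cells in most members, by much less than before. Both were higher in 618 of 811 members, or 76.2%, against 34.2% of all regions, and both were lower in 35, or 4.32%, against 34% of all regions. Among regions whose luminal values reached 20 at both earlier stages these shares were 43.5% and 26%. Each counted by itself, ER- luminal cells were higher than basal cells in 755 members and ER+ luminal cells in 639, without a share over all regions to set beside them. The median excess over basal cells was 1.132 for ER- and 0.615 for ER+ luminal cells. Over all regions it was 0.016 and -0.009. The median luminal minus basal difference was 0.87, the mean of both luminal types on the log2 scale, against 0.00 over all regions and 0.14 over the 31937 regions whose luminal values reached 20 at both earlier stages. With 1 library per cell type there is no replicate check and no test of these differences.

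Few members stayed as far apart in pregnancy as the rule had asked of the earlier stages. Both luminal types were at least 1.5 above basal cells in 68 members, or 8.38%, against 3.7% of all regions and 1.48% of the regions with luminal values of 20 or more. ER- luminal cells alone passed in 144 further members, or 17.8%, against 3.27% of all regions. ER+ luminal cells alone passed in 38, or 4.69%, below the 6.85% of all regions. Neither passed in 561, or 69.2%, against 86.2% of all regions. Counted separately, ER- luminal cells passed in 212 members, or 26.1%, against 6.97% of all regions. ER+ luminal cells passed in 106, or 13.1%, against 10.5% of all regions. Among the regions with luminal values of 20 or more the shares were 3.99% for ER- and 3.89% for ER+ luminal cells. The count of 68 was 142 after quantile normalization and 36 with a pseudocount of 4, without a share over all regions to set beside these alternatives.

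**Figure D2:**
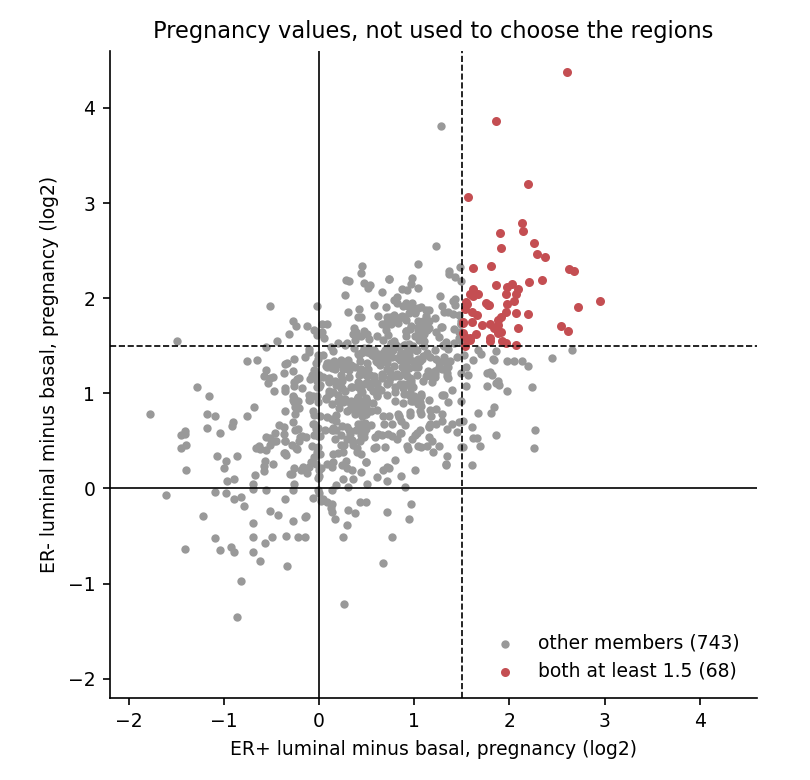
Pregnancy log2 difference of ER+ luminal minus basal (x) and ER- luminal minus basal (y) for each member, 1 point per region; dashed lines mark 1.5 on the log2 scale and red points are the 68 members past both. More points lie above the horizontal dashed line (212) than right of the vertical one (106).

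The 2 widest pregnancy differences belonged to members with few basal reads. Region merged30060 had no read in the basal pregnancy library, 3 reads in ER+ luminal (a value of 5.085) and 13 in ER- luminal cells (19.72). Its values in basal, ER+ luminal and ER- luminal cells were 2.374, 37.33 and 23.66 at puberty and 6.314, 43.62 and 22.29 in adults. The lower limit of its ER- luminal to basal ratio in pregnancy was 2.1, and for ER+ luminal cells 0.319, so the ER+ difference was not detectable at this depth. Region merged56215 had 4.399, 18.65 and 77.35 in basal, ER+ luminal and ER- luminal cells in pregnancy, from 2, 11 and 51 reads. It had 11.87, 85.19 and 102.5 at puberty and 12.63, 55.59 and 80.97 in adults. The ER- luminal excess over basal cells in pregnancy was 17.6-fold (95% counting interval 4.63 to 149), and the ER+ excess 4.24-fold (0.925 to 39.4). Both regions were picked as the highest of the members on the pregnancy difference, so their intervals are a description only.

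At the other end, basal cells had the higher value in pregnancy. Region merged11995 had 28.59 in basal cells against 15.26 (ER+) and 10.62 (ER-) in the luminal types. Its earlier values in the same order were 6.332, 29.45 and 24.37 at puberty and 6.314, 35.06 and 25.26 in adults. Region merged5382 had 24.19, 8.476 and 15.17 in pregnancy, after 5.54, 29.97 and 28.67 at puberty and 3.946, 34.21 and 26 in adults. Both are dim regions with 5 to 13 reads in each pregnancy library, and the upper counting limits of their luminal to basal ratios ran from 1 to 1.63. They were picked as the lowest of the members on the pregnancy difference, so these limits too are a description only.

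**Figure D3:**
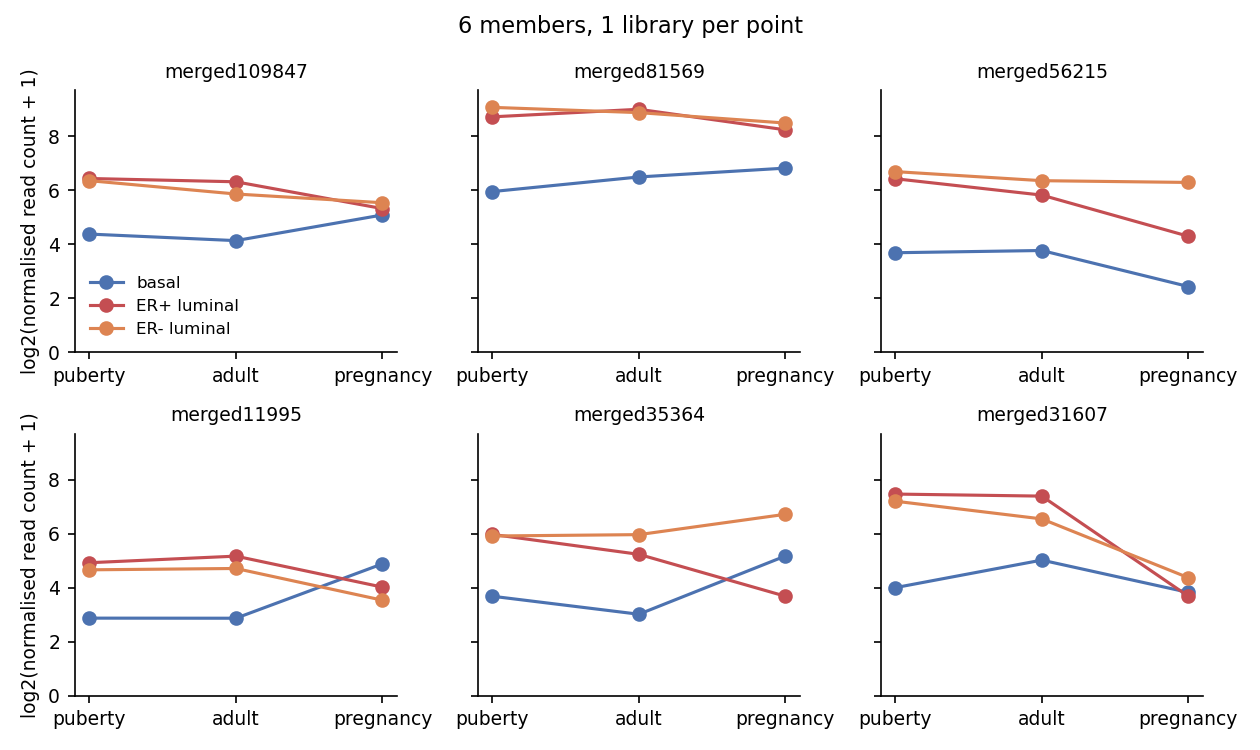
Log2(normalised read count + 1) by stage for 6 members, with 1 library per point and lines joining the libraries of a cell type. In merged109847, merged11995 and merged31607 the basal and luminal points lie close or cross in pregnancy, while in merged81569 and merged56215 the basal point is lowest at each stage.

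Within the set, the earlier size of the difference said little about pregnancy. With the members ordered by earlier difference, the lowest 203 (median 1.95) had a pregnancy median of 0.84, and the following 203, 202 and 203 had 0.79, 0.82 and 1.02. For ER- luminal cells alone these medians were 1.09, 1.06, 1.06 and 1.31. The share past 1.5 in both luminal types was 6.9%, 6.4%, 7.43% and 12.8% in these steps. Across members Pearson r between the earlier and the pregnancy difference was 0.143, and between puberty and adult it was 0.098 (n = 811 regions in both cases, with Spearman's rho of 0.128 and 0.124, over a range the rule narrows). By luminal brightness the pregnancy median ran from 0.72 in the dimmest 203 members to 0.98 in the brightest 203.

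The 2 luminal types did not keep the same place in pregnancy. The rule held their means over the earlier stages within 1 of each other, with a median ER+ minus ER- difference of 0.08 at puberty and 0.21 in adults. A wider gap at the stage it did not use is thus in part set by the choice. In pregnancy the median was -0.48, against -0.03 over all regions and -0.25 over regions with luminal values of 20 or more. ER- luminal cells were higher in 608 members and ER+ luminal cells in 203, without a share over all regions to set beside them. The order of the members partly carried over: Pearson r between the earlier and the pregnancy ER+ minus ER- difference was 0.312, and between puberty and adult 0.421 (n = 811 regions).

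Members were then grouped by their earlier lean between the luminal types. The median ER+ minus ER- difference went from -0.689 earlier to -0.852 in pregnancy for those leaning to ER-. It went from 0.080 to -0.532 for those in between and from 0.668 to -0.179 for those leaning to ER+. The shift was smallest in members leaning to ER-. The groups were made on the same earlier difference that the shift is measured from. The order of the shifts is thus in part set by the grouping, and nothing is read from it. The counts below were not made over all regions. Of the 64 with an earlier ER+ minus ER- difference below -0.5, ER- luminal cells were higher in pregnancy in 63. Of the 562 within 0.5, ER- luminal cells were higher in 429. Of the 185 leaning to ER+ by more than 0.5, ER+ luminal cells were still higher in 69 and ER- luminal cells in 116. The ER+ leaning members had a pregnancy excess over basal cells of 0.88 in ER+ and 1.03 in ER- luminal cells, and 25 of them, or 13.5%, passed 1.5 in both, against 2 of 64 among those leaning to ER-.

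The extremes of this contrast were merged90077 and merged35364. In pregnancy merged90077 had 45.77 in ER+ and 12.13 in ER- luminal cells with 8.797 in basal cells, an ER+ to ER- ratio of 3.77 (95% counting interval 1.67 to 9.61). Its earlier values in basal, ER+ luminal and ER- luminal cells were 18.2, 150.9 and 169.2 at puberty and 19.73, 134.3 and 62.4 in adults. Region merged35364 had 11.87 in ER+ and 104.7 in ER- luminal cells with 35.19 in basal cells in pregnancy, a ratio of 0.113 (0.044 to 0.246). It had 11.87, 62.05 and 59.5 at puberty and 7.103, 36.77 and 61.66 in adults. They were picked as the highest and the lowest of the 811 members on this difference, so their intervals are a description only.

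From the earlier stages to pregnancy the luminal and basal values of the members came nearer together, while the 2 luminal types came apart. From adult to pregnancy the median log2 change over members was 0.57 in basal cells. It was -1.01 for ER+ and -0.38 for ER- cells of the luminal layer. Over all regions the medians were -0.03, -0.05 and 0.03 in the same order, and over regions with luminal values of 20 or more they were -0.47, -0.38 and -0.20. The latter regions include the members and had no limit on basal values. From puberty to pregnancy the members' medians were 0.83, -1.05 and -0.50. The ER+ luminal value in pregnancy lay below both earlier stages in 723 members, or 89.1%, against 41.9% of all regions. The ER- luminal value did so in 543, or 67%, against 34.3%. The basal value lay above both in 593, or 73.1%, against 37.9%, and all 3 held in 318 members, or 39.2%, against 3.72%. The rule set high luminal and low basal values at the earlier stages, so values nearer together at a stage it did not use are in part its own result. It also held the means of the luminal types within 1 of each other there, so their coming apart is likewise in part its own result. Nothing is read from these counts alone.

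Choosing the regions at 1 stage and reading both other stages puts pregnancy beside a stage that was likewise not used. The rule applied at puberty alone took 2773 regions. Their median luminal minus basal difference was 1.47 in adults and 0.67 in pregnancy, and 809 regions (29.2%) against 152 (5.48%) were at least 1.5 apart for both luminal types. Of all regions 4.3% were so in adults. The adult difference was the larger in 2307 of the 2773. Applied in adults alone, the rule took 1674 regions, with a median difference of 1.82 at puberty and 0.75 in pregnancy. Of these 831 (49.6%) against 126 (7.53%) were at least 1.5 apart, where 4.93% of all regions were at puberty, and the puberty difference was the larger in 1404.

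With reads thinned to equal depth the medians were 1.43 in adults and 0.66 in pregnancy for the regions chosen at puberty, and 1.85 at puberty and 0.74 in pregnancy for those chosen in adults. In either choice the ER+ luminal cells lay further from basal cells than the ER- luminal cells at the unused earlier stage (1.66 against 1.26 in adults, 1.90 against 1.80 at puberty) and nearer in pregnancy (0.53 against 0.86, and 0.53 against 0.97). The 3 stages were read in single libraries, so a difference between mice of different stages and a change of the gland cannot be told apart.

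**Figure D4:**
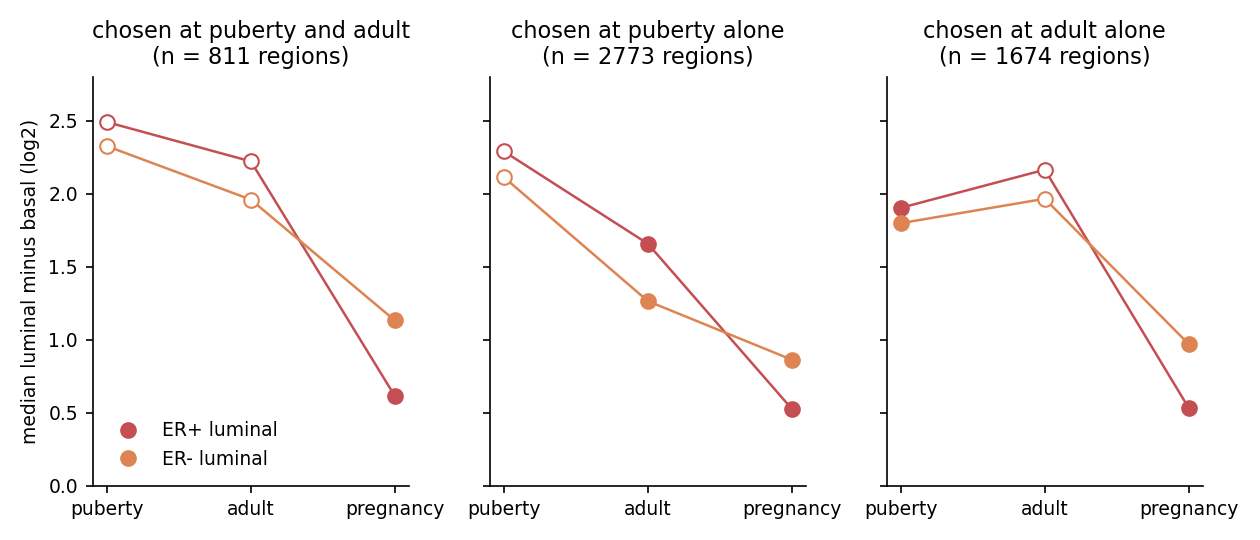
Median luminal minus basal log2 difference by stage for regions chosen at both earlier stages (left), at puberty alone (middle) or in adults alone (right); open circles mark stages used for the choice and filled circles stages not used. In the middle and right panels the filled pregnancy points (0.53 to 0.97) lie below the filled points of the unused earlier stage (1.26 to 1.90).

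Stage was tested with limma in all regions, with additive terms for stage and cell type and all 9 libraries in the fit. Its error is the departure of libraries from additive effects, not a spread between animals. Between pregnancy and the mean of both earlier stages, 65 members were less accessible, or 8.01%, against 4.83% of all regions, and 4 were more accessible, or 0.493%, against 2.06% of all regions. At an unadjusted p under 0.05 the count was 204 of the 811 members, a share close to the 23.4% of all regions (29246 of 124860). The median log2 difference was -0.24 over members and 0.05 over all regions. The members' earlier luminal values were chosen to be high, so their share of lower calls is not independent of the rule.

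The 65 members that fell were bright ones, with the luminal values lowest in pregnancy in each. Their median was 154.6 and 155.6 in ER+ and ER- luminal cells at puberty and 32.21 and 43.99 in pregnancy. In both luminal types the pregnancy value lay below both earlier ones in 65 of 65, and in basal cells in 42. The 65 were called for lower values in pregnancy, out of members chosen for high luminal and low basal values earlier. These counts and the brightness are thus in part set by both choices. The luminal excess over basal cells was still 1.00 at the median, and 12 of the 65 passed 1.5 in both luminal types. Region merged31607 fell most, with 15.04, 31.57 and 13.2 in basal cells at puberty, in adults and in pregnancy. Its ER+ luminal values were 176.7, 167.6 and 11.87, and its ER- luminal values 147, 92.85 and 19.72. Its log2 difference was -2.32 (SE 0.42, limma adjusted p = 0.00244), and in pregnancy the ER+ luminal value lay below the basal one. Region merged114405 rose most, with 12.66, 8.681 and 52.78 in basal cells. Its ER+ luminal values were 70.46, 65 and 101.7, and its ER- luminal values 56.63, 47.54 and 147.1. Its log2 difference was 1.43 (SE 0.33, limma adjusted p = 0.0119), with pregnancy highest in each cell type. Both regions were picked as the extremes of the called members, so their values are a description only.

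Single libraries decided how many members were called for stage. In place of 69 calls there were 192 when basal pregnancy was left out, 23.7% of members against 6.69% of all regions, and 128 when basal puberty was, 15.8% against 8.42%. Leaving out ER- cells gave 13 at puberty, 1.6% against 1.84%, and 15 in pregnancy, 1.85% against 3.73%. Leaving out ER+ cells gave 23 at puberty, 2.84% against 2.91%, and 38 in adults, 4.69% against 4.19%. It gave 33 in pregnancy, 4.07% against 2.96%, and leaving out basal adult cells gave 26, 3.21% against 2.08%. The members' share of calls was thus above or below that of all regions depending on 1 library. With ER+ pregnancy left out, 15 of the 33 were higher and the members' median log2 difference turned to 0.14. After quantile normalization 11 of 47 calls were higher, or 23.4%, against 5.8% in the deposited values, and over all regions the share of higher calls was 43.2% against 29.9%. Without a trend in the prior variance none was called.

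Between adults and puberty no member was called higher or lower by limma, against 0.0016% and 0% of all regions. Both stages chose the members, and calls were this rare over all regions, so the absence of calls is not read as stability. At an unadjusted p under 0.05 the count was 22 members, against 4.63% of all regions, and edgeR and DESeq2 also called 0. The median log2 difference was 0.02. From puberty to adult the median change was 0.24 in basal cells, -0.04 in ER+ cells and -0.16 in ER- cells, each from 1 library per stage.

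The same rule with the cell types exchanged gave sets to set the members beside. With ER+ luminal cells as the low type 2096 regions passed, and with ER- luminal cells as the low type 188. In pregnancy the low type was still at least 1.5 below both others in 320 regions of the first set, or 15.3%, against 3.19% of all regions. In the second it was so in 31, or 16.5%, against 3.97%. For the members the share was 8.38%, and for the 5138 basal-high regions, with the sign turned, 2299 regions or 44.7%, against 4.46%. The basal-high set has basal cells as the high type and is not an exchange of the same rule. The sets also began from different gaps. The median difference at puberty and in adults was 2.396 and 2.089 for the members and 3.268 and 3.155 for the basal-high set. It was 2.603 and 3.076 with ER+ cells low, and 2.196 and 2.496 with ER- cells low. The shares past a fixed 1.5 are thus not a like-for-like comparison. Whether these shares differ beyond the spread of libraries was not tested, since each rests on the same 3 pregnancy libraries. Without ER+ cells, the median pregnancy difference between basal and ER- luminal cells was 1.13 for the members, 1.40 for the set with ER- cells low and 1.77 for the basal-high set. In the same order this difference had been 2.325, 2.052 and 2.871 at puberty and 1.959, 2.674 and 2.646 in adults.

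In each of the 3 sets with a low type, that type had a higher median in pregnancy than in adults. It was 15.78 and then 26.39 in basal cells for the members, 5.987 and 25.43 in ER+ luminal cells for the first exchanged set, and 8.543 and 13.65 in ER- luminal cells for the second. The rule held the low type down in adults, so a higher median at the stage it did not use is in part set by the choice, in the members as in the other sets, and nothing more is read from it.

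**Figure D5:**
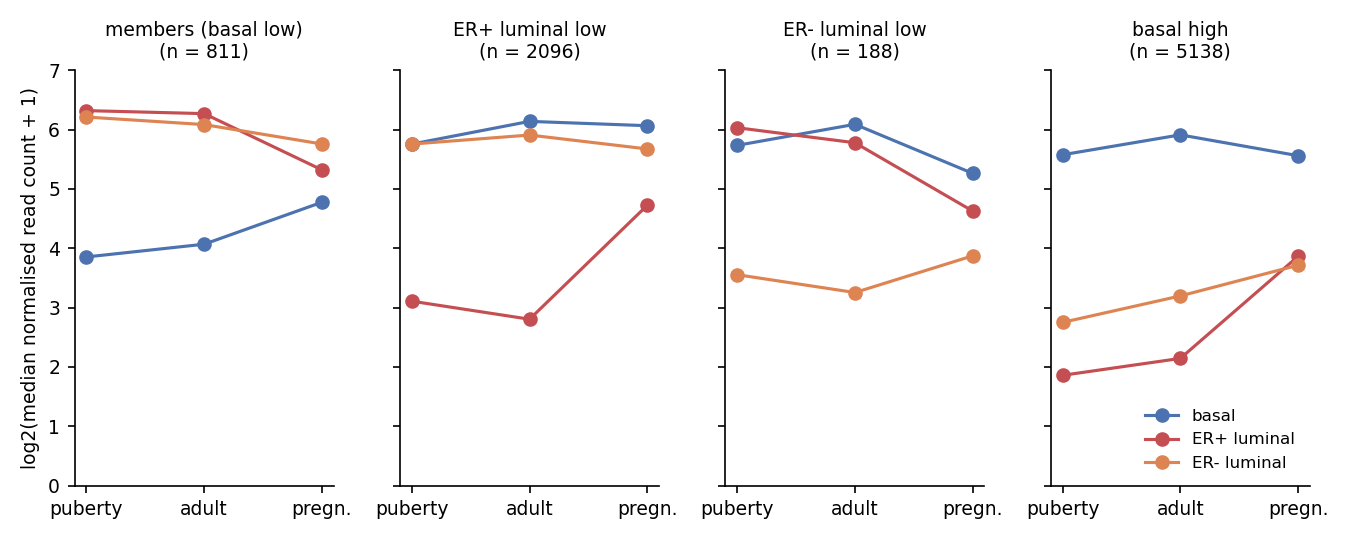
Median normalised read count by stage, as log2(median + 1), in each cell type for the members, the same rule with ER+ or ER- luminal cells as the low type, and the regions with basal cells above both luminal types. In each panel with a low type, its line lies nearer the others in pregnancy than in adults, while the 2 high lines lie further apart. The rule held the low type down and the means of the 2 high types within 1 of each other earlier, so both are in part set by the choice.

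The members were not evenly spread over the table's running numbers. A member carried the next number after another member in 28 cases, or 3.45% of members, while members make up 0.65% of all regions. Altogether 54 members stood next to another one, and the longest run held 3. The 1552 other regions numbered next to a member had a median luminal minus basal difference of 0.49 in adults and 0.23 in pregnancy, against 0.06 and 0.00 over all regions. Over all consecutive numbers Pearson r of the adult difference was 0.212 (across regions, as a description). None of the sources used here says what the order of the numbers stands for.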

How the data were processed

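ATAC-seq of 9 libraries of sorted mouse mammary cells was used, 1 for each of 3 cell types at 3 stages. Per the labels the molecule is RNA, while the protocols describe ATAC-seq. Per the submitters' processing notes, the tools were MACS2 2.1.0.20151222, Bowtie2 2.2.6, Picard and SAMtools, with GRCm38 (mm10). How peaks were merged and values scaled, and any Tn5 shift, are not given in the sources used here. What the submitters deposited is a signal per region and library, made by the authors: 100% of values were whole multiples of 1 step per library within 0.1 read (0.5258 to 2.1993 per read), as in counts divided by a size factor. Column names ending in p and m were read as ER+ and ER-.

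Values were taken as log2(value + 1). Stage was tested with limma 3.58.1 (R 4.3.3) in an additive model over 9 libraries with 4 residual degrees of freedom, a variance trend and Benjamini-Hochberg adjustment over 124860 regions at 0.05, with no low-value filter. Read ratios carry exact binomial 95% intervals. Alternatives used edgeR 4.0.16, DESeq2 1.42.0, TMM factors, quantile normalization and thinned reads. Named regions are the extremes and the member nearest to the 9 medians. The extremes follow rules on pregnancy difference, luminal level, luminal contrast, called stage change and closeness to the 1.5 limit. The members, sets and tests were chosen with earlier results of these data known.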

Additional observations from a re-analysis of the deposited data

Results flagged for a closer look

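The cell types moved in opposite directions between stages at the members, and the difference between them was not tested, since each median comes from 1 library per stage. From adult to pregnancy the median log2 change was 0.566 in basal cells, -1.012 in ER+ cells and -0.383 in ER- cells of the luminal layer. From puberty to pregnancy it was 0.831, -1.052 and -0.495 in the same order. From puberty to adult it was 0.240, -0.043 and -0.156, although both of these stages were used to choose the members. The rule set high luminal and low basal values at the earlier stages. Opposite changes toward pregnancy are therefore in part its own result, and nothing more is read from them.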

How the results depend on the processing

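The count of 68 members at least 1.5 apart in pregnancy was 36 with a pseudocount of 4, 142 after quantile normalization, 193 with a limit of 1 and 14 with a limit of 2. With the limit of 1 the share was 23.8%, against 8.16% of all regions. The counts of 36, 142 and 14 have no share over all regions to set beside them. With other limits in the rule it was 141 of 2125 regions (basal lower by 1), 21 of 193 (lower by 2), 41 of 549 (luminal values of 40) and 41 of 562 (luminal types within 0.5). These are 6.64%, 10.9%, 7.47% and 7.3%, against 3.7% of all regions. Chosen after the data had been seen, the rule at puberty alone gave 152 (5.48%) and in adults alone 126 (7.53%). Asking it of 1 luminal type gave 106 to 212. The median difference of 0.866 was 0.796 with a pseudocount of 4, 1.119 after quantile normalization, 0.775 with basal lower by 1, 0.673 and 0.745 with the rule at puberty or adult alone, and 0.615 to 1.132 with 1 luminal library; it stayed above 0 in each alternative. The 69 stage calls were 0 without a variance trend and 13 to 192 with 1 library left out. The adult against puberty count was 0 in each alternative, where at most 0.0119% of the regions tested were called. No paired analysis was possible because each group holds 1 library and the sources used here give no pairing between libraries. The limma model already compares stages within cell types. Basal pregnancy members had a median of 12 reads, which limits single regions.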
